A study of Mus musculus with 5 samples.

Results

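The mitosis genes described here are 45 genes of G2 and M phase, chosen by name for known roles in mitotic entry, the kinetochore, the spindle, the checkpoint and cytokinesis. All 45 were found by their Ensembl identifiers among the 27729 genes of the deposited tables. All 45 were also among the 13346 genes tested, that is, genes that reached 10 expected counts in at least 1 library. RNA came from mouse embryonic fibroblasts (MEFs) of the ICR strain. These are primary cells prepared from embryos without head and internal organs, enriched for strong attachment and kept in medium with serum until day 0. They were then held in 5C medium, an induction medium that the labels call 6C and that the study uses to turn MEFs into neuron-like cells. The 5 libraries were day 0 in serum medium and days 2, 5, 10 and 14 in induction medium, each 1 library of a mixed culture. The last library is labelled day 14, whereas its treatment label names a later last day of lysis.

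Mitosis genes are transcribed in waves. Their RNA builds up in G2, when the repressor complex DREAM has given way to B-Myb, MuvB and FOXM1, and it drops when cells leave the cycle. Their level in bulk RNA depends both on the number of cells near mitosis and on the RNA in each. As the RNA was from whole cultures, fewer cells of a type and less RNA per cell cannot be told apart. With 1 library per time point there was no replicate check and no test between time points. The intervals in brackets are exact, at the 95% level, for the counts of the libraries set side by side, and they cover counting error only.

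The promoters of these genes share short motifs, which are shown before the values. The cell cycle genes homology region (CHR), the element bound by MuvB complexes, was searched as TTTGAA or TTCGAA on both strands. The box bound by NF-Y was searched as CCAAT on both strands. TTCGAA reads the same on both strands and was counted once, and the number of promoters of mitosis genes in which a CHR match overlapped a CCAAT match was 0. The windows ran from 250 bases before to 50 bases after the RefSeq start on GRCm38.p6. RefSeq entries were found for 37 of the 45 genes, in 40 promoters. A CHR match lay in 32 of these 40 promoters (80%), against 19.2% of all 32851 promoters of the same length and 13.8% of the promoters of genes tested. On the forward strand alone, the share was 62.5% against 11.6% of all promoters. Within 50 bases of the start, a CHR match was found in 67.5% of the promoters of mitosis genes and in 5.31% of all promoters. A CCAAT match lay in 80% against 37.4%, at least 2 CCAAT matches in 52.5% against 11.7%, and both motifs in 72.5% against 7.52%. Of 35 distances between neighbouring CCAAT matches in the mitosis genes, 9 were 31 to 33 bases (25.7%), against 6.02% of 5418 such distances in all promoters. That distance was singled out after the positions had been seen. A match is a run of letters and not a shown binding site.

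The promoters below are printed 5′ to 3′ in the direction of the gene, with CHR and CCAAT matches on either strand in capitals. Those of the B-type cyclins Ccnb2 and Ccnb1 are shown because their RNA moved apart on day 2. Cdc20 is shown as the member with the highest normalized count on day 2. Espl1 is shown as the member above day 0 on day 14, and Bub3 as the member with the highest count then. Ccnb2 held CHR matches at position 5 and 167 bases before the start, and 3 CCAAT matches before the start, at 87, 54 and 21 bases. The Ccnb1 window held CCAAT matches 99 and 67 bases before the start, and these CHR letters were not in this window. Cdc20 held a CHR match 18 bases before the start, Espl1 1 at 27 bases, and Bub3 1 on the reverse strand at 43 bases.
Ccnb2 (chr9:70421505-70421804, reverse strand): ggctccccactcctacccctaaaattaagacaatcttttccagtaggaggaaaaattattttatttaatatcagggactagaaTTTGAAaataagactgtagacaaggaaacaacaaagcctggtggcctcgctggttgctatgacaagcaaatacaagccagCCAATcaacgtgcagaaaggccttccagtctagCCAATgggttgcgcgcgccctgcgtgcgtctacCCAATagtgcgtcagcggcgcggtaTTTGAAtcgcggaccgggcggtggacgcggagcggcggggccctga
Ccnb1 (chr13:100786437-100786736, reverse strand): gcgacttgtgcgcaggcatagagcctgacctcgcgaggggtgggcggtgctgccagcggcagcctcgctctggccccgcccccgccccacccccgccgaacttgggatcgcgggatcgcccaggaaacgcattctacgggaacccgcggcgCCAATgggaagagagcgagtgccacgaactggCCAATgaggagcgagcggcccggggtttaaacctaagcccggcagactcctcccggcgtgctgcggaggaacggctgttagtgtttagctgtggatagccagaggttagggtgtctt
Cdc20 (chr4:118437294-118437593, reverse strand): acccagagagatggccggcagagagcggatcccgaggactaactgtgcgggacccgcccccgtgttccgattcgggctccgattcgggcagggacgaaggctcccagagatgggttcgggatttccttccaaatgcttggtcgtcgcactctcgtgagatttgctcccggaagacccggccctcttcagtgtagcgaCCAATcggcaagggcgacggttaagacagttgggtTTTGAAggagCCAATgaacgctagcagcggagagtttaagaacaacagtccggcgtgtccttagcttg
Espl1 (chr15:102296043-102296342, forward strand): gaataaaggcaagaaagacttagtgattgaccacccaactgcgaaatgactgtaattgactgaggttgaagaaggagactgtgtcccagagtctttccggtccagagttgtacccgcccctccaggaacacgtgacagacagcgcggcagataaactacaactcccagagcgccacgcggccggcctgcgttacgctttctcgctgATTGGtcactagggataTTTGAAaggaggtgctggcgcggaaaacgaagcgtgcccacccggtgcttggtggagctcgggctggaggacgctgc
Bub3 (chr7:131560120-131560419, forward strand): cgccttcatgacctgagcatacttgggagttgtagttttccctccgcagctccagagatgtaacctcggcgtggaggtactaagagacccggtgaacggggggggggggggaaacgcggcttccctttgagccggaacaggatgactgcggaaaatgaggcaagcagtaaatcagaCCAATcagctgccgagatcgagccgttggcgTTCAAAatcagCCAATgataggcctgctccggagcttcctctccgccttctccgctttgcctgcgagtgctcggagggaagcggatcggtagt

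**Figure D1:**
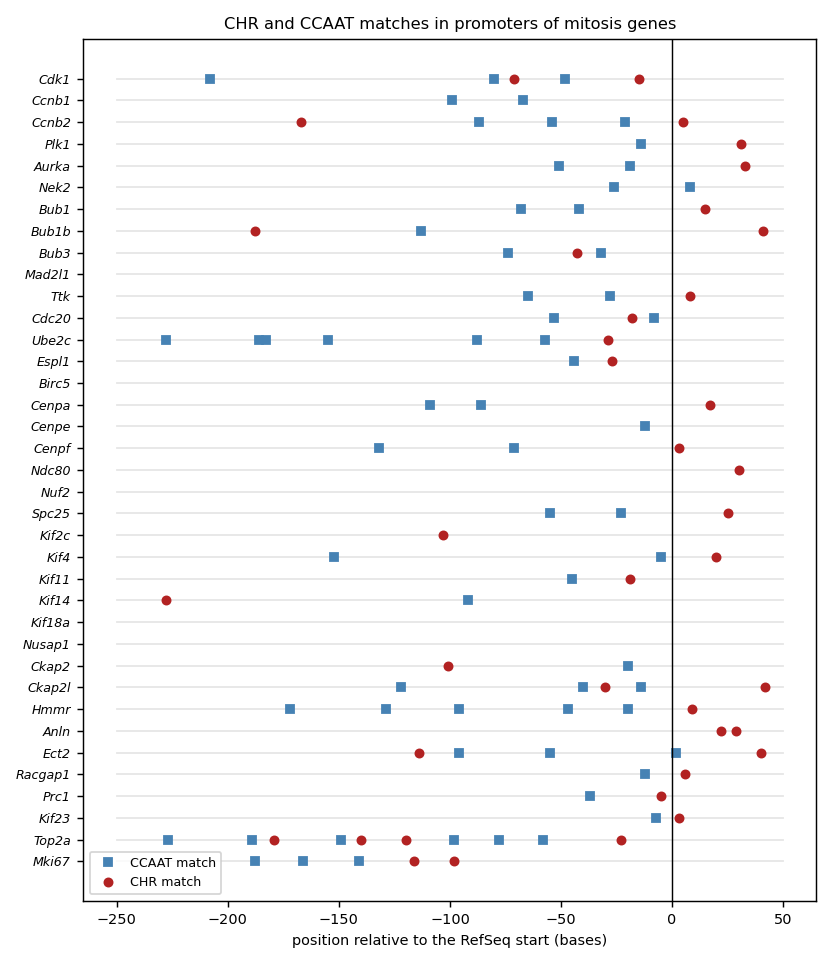
Positions of CHR (TTTGAA or TTCGAA) and CCAAT matches on either strand, in bases relative to the RefSeq start (line at 0), in 1 promoter of each of 37 mitosis genes, ordered by role. Of 43 CHR matches in the 40 promoters, 29 lay within 50 bases of the start, with CCAAT matches mostly before them.

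Members with and without a CHR match had like medians. The 29 members with a CHR match had a median log2 change of 0.61 on day 2 and -1.93 on day 14. The 8 members with an entry and no match (Birc5, Ccnb1, Cenpe, Kif18a, Mad2l1, Nek2, Nuf2 and Nusap1) had 0.60 and -2.18. The 8 members without a RefSeq entry (Ccna2, Cdc25c, Foxm1, Aurkb, Incenp, Spc24, Tpx2 and Kif20a) had 0.62 and -1.83. In the promoters of 36 other genes transcribed in G2 and M phase, of which 29 had an entry, the CHR share was 60.6%. In the 15 promoters of the anaphase-promoting complex (APC/C), which is not made in waves, it was 13.3%. The share was 50% of 12 promoters of condensin and cohesin genes and 40% of 10 promoters of DREAM and MuvB genes. For genes known to be high in resting cells it was 11.1% of 9 promoters.

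As a group, the mitosis genes rose early, were highest on day 5 and lay below day 0 on day 14. Their share of all counts was 788 per 1000000 on day 0, then 1212, 1795, 1338 and 340 in the later libraries. After scaling by TMM factors, their normalized counts summed to 3033, 4941, 5328, 3712 and 1021. The sum on day 14 was 2.97-fold lower than on day 0, a log2 change of -1.57 (-1.67 to -1.47), and 3.64-fold lower than on day 10. The day 2 sum was 1.63-fold and the day 5 sum 1.76-fold that of day 0. Thus the fall between day 10 and day 14 was larger than any earlier step of the sum.

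The counts of single genes set the limits of what follows. The median member had 46.5 normalized counts on day 0, then 85.0, 92.8, 59.3 and 10.7. On day 14, 18 members had fewer than 10 expected counts, and Kif14 had 3. Total expected counts were between 2253748 on day 2 and 3890334 on day 0, and 3 counts correspond to between 0.771 and 1.33 per 1000000. The day 2 library also stood apart by Gm42418, a gene that overlaps ribosomal RNA sequence, which took 4.79% of its counts and at most 0.109% elsewhere. Without Gm42418 and Lars2 in the library sizes, the median of the mitosis genes on day 2 was 0.61, as with them.

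**Figure D2:**
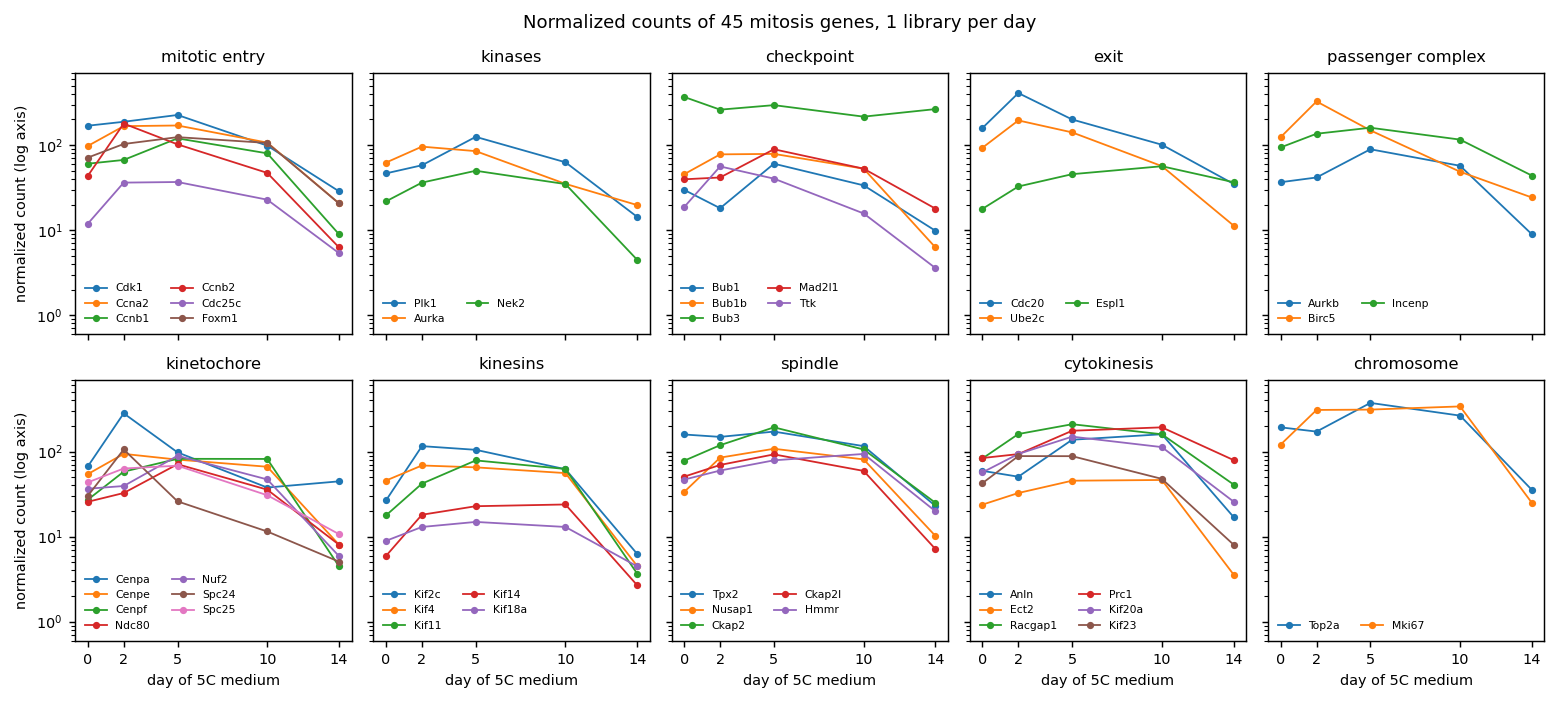
Normalized counts (log axis) of the 45 mitosis genes by day, 1 library per day, with 1 panel per role and 1 line per gene. By these counts most lines are highest on day 2 or day 5 and lowest on day 14 (by TPM 19 genes are highest on day 10), while Bub3 stays between 216 and 368 and Espl1 is lowest on day 0.

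Levels can be compared between genes only per length, for which TPM (transcripts per 1000000) was used. On day 0, Bub3 (63.3 TPM), Cdk1 (49.1), Top2a (48.2), Birc5 (44.8) and Cdc20 (35.4) were the most abundant, and Kif14 (0.24), Kif18a (0.88) and Espl1 (0.94) the least. On day 5, Top2a (114) and Cdk1 (110) were above Bub3 (82.8). On day 14, Bub3 was first again with 83.6 TPM, followed by Cenpa (27.3), Prc1 (21.4) and Cdk1 (17.1), and Kif14 (0.25) and Cenpf (0.26) were last. The order of the most abundant members thus differed between the libraries, while Kif14 was lowest in all 3 of these.

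Read gene by gene, the pattern was shared but not uniform. On day 2, 15 of the 45 genes were more than 2-fold above day 0, and the number more than 2-fold below it was 0. Among all genes tested the shares were 15.2% above and 13.1% below. On day 5, 22 were above and 0 below, with 20.2% and 13.6% of all genes. On day 10, 9 were above and 2 below, with 28.7% and 22.3%. Here the reading depended on the scaling. The share of 9 in 45 is smaller than that of all genes. With library totals alone, 17 were above, also a smaller share than the 39.3% of all genes. With TPM, by contrast, 33 of 45 were above, a larger share than the 52.9% of all genes. On day 14, 1 was above and 39 were below, with 24.5% and 19.9%. With TPM, 7 were above on day 2 and 39 on day 5, against 7.9% and 32% of all genes. The medians of the mitosis genes were 0.61, 1.00, 0.41 and -1.93 on the log2 scale on the 4 days, and those of all genes tested -0.03, 0.05, 0.14 and 0.07. The interval lay above 0 for 24, 38, 17 and 1 of the 45 genes, and below 0 for 1, 1, 9 and 40.

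From day 2 on there were 3 steps between consecutive libraries. From day 2 to day 5, 8 members rose and 4 fell by more than 2-fold, against 19.0% and 12.5% of all genes, with a median of 0.27 against 0.12. Neither share of the mitosis genes in this step was larger than that of all genes. From day 5 to day 10, 0 rose and 9 fell, against 12.8% and 9.50%, with a median of -0.58 against -0.01. From day 10 to day 14, 0 rose and 40 fell, against 4.73% and 8.33%, with a median of -2.23 against 0.02. These steps share libraries with each other and are not independent.

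The highest library of each gene divided the list, in a way that depended on the scaling. Bub3 was highest on day 0. The 12 genes highest on day 2 were Ccnb2, Aurka, Ttk, Cdc20, Ube2c, Birc5, Cenpa, Cenpe, Spc24, Kif2c, Kif4 and Kif23. The share of all genes was not taken for this day by these counts. With library totals alone, 7 were highest on day 2, against 13.6% of all genes. Not every peak day was resolved by the counts. The steps of Kif23, Kif4 and Kif2c from day 2 to day 5 had intervals of -0.51 to 0.52, -0.65 to 0.54 and -0.59 to 0.32. There were 25 genes highest on day 5, against 10.6% of all genes tested. Espl1, Kif14, Hmmr, Anln, Ect2, Prc1 and Mki67 were highest on day 10, that is 7 of 45 genes against 26.4% of all genes. By TPM, 4 were highest on day 2 (Cdc20, Birc5, Cenpa and Spc24), 21 on day 5 and 19 on day 10, against 7.64%, 11.8% and 50.4% of all genes. On day 14, 42 of the 45 were at their lowest, against 12.9% of all genes, and the exceptions were Espl1 (lowest on day 0), Bub3 and Cenpa (both lowest on day 10). By TPM, 38 were at their lowest on day 14, against 7.79% of all genes.

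**Figure D3:**
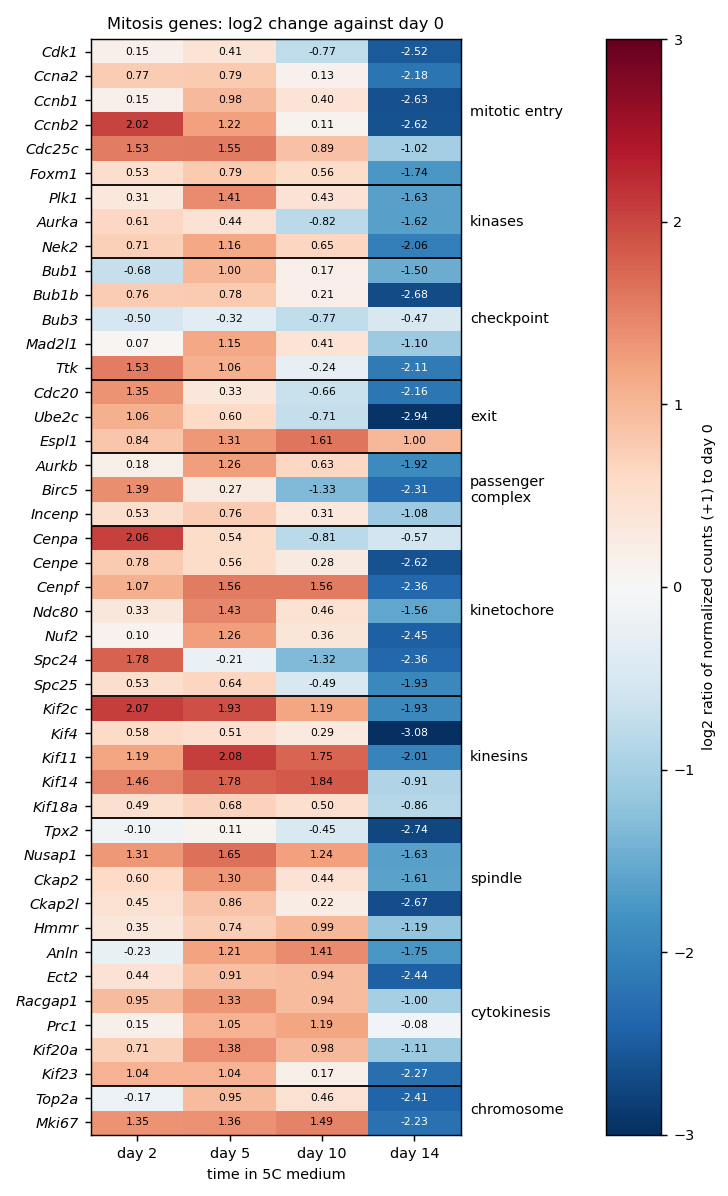
Log2 ratio of normalized counts (pseudocount 1) to day 0 for the 45 mitosis genes on days 2, 5, 10 and 14, ordered by role. Red is above and blue below day 0. The day 14 column is blue for 44 of 45 genes, with Espl1 at 1.00 as the exception, although under TPM Bub3, Cenpa, Kif14 and Prc1 lie at or above 0.

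The genes of mitotic entry came first in the order of roles. Cdk1, the kinase that drives entry, had 169, 188, 226, 98.5 and 28.6 normalized counts in the libraries from day 0 to day 14, the order kept below. Its day 5 change was 0.41 (0.13 to 0.70), and its day 14 change -2.52 (-3.16 to -2.01). On day 10 Cdk1 was at -0.77, but at 0.48 with TPM and 0.09 against genes of like length. Its partner Ccnb1 had 60.4, 66.9, 120, 80.0 and 8.94 normalized counts, and Ccnb2, the other B-type cyclin, 43.5, 179, 102, 47.1 and 6.26. Both cyclins were low on day 14, but only Ccnb2 more than doubled by day 2, with a log2 change of 2.02 (1.51 to 2.59) against 0.15 (-0.48 to 0.76). Cyclin A2 (Ccna2) had 97.7, 167, 170, 107 and 20.7. Cdc25c, the phosphatase that switches Cdk1 on, had 11.9, 36.2, 36.8, 22.8 and 5.36 counts, with changes of 1.53 and 1.55 on days 2 and 5. Its day 14 change of -1.02 (-2.85 to 0.38) had an interval that held 0. Foxm1, the transcription factor of this gene wave, had 71.3, 103, 124, 106 and 20.6 counts. All 6 entry genes were more than 2-fold below day 0 on day 14, against 19.9% of all genes, with a median of -2.35.

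Among the other mitotic kinases, Plk1, which acts at centrosomes, kinetochores and the midzone, had 46.5, 57.9, 125, 62.8 and 14.3 normalized counts. Aurka, the kinase of the spindle poles, had 62.3, 95.9, 84.9, 35.0 and 19.7, and was already below day 0 on day 10, at -0.82 (-1.40 to -0.27), although at 0.31 with TPM. Nek2, which separates centrosomes, had 21.8, 36.2, 49.9, 34.8 and 4.47. Plk1 and Nek2 rose more than 2-fold by day 5, Plk1 by 1.41 (0.94 to 1.94) and Nek2 by 1.16 (0.46 to 1.98). Aurka had the smallest fall of the 3 between days 10 and 14, at -0.80 (-1.63 to -0.08), against -2.06 for Plk1 and -2.71 for Nek2. Tpx2, which activates Aurka on the spindle, had 159, 149, 172, 116 and 23.0.

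The spindle assembly checkpoint delays anaphase until all chromosomes are attached. Bub3, its scaffold, had the highest mean of these genes, with 368, 261, 295, 216 and 265 normalized counts. It was the member with the highest counts on both day 0 and day 14, and its day 14 change was -0.47 (-0.70 to -0.25), or 0.40 with TPM. Bub1, a checkpoint kinase that binds Bub3, had 29.7, 18.1, 60.4, 33.6 and 9.83, and its step from day 2 to day 5 was the largest rise of any member, at 1.68 (0.77 to 2.86). Its relative Bub1b, which inhibits the APC/C, had 45.5, 77.8, 78.8, 52.8 and 6.26, and its day 14 change was -2.68 (-4.26 to -1.71). Bub1 and Bub1b therefore differed on day 2 and were both low on day 14. Mad2l1, which captures Cdc20, had 39.6, 41.6, 89.3, 52.8 and 17.9. Ttk, the kinase upstream of the checkpoint, had 18.7, 56.1, 40.3, 15.7 and 3.58, with a day 2 change of 1.53 (0.71 to 2.48).

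Of the 3 genes of mitotic exit, 2 were highest on day 2 by counts. Cdc20, which activates the APC/C in anaphase, had 159, 409, 200, 101 and 34.9 normalized counts, and 409 was the highest normalized count of any member on day 2, although per length Birc5 (102 TPM) and Cenpa (73.8 TPM) were above Cdc20 (67.3 TPM). Ube2c, the ubiquitin-conjugating enzyme of the APC/C, had 93.1, 195, 141, 56.6 and 11.3. Both rose more than 2-fold by day 2, with 1.35 (1.06 to 1.66) and 1.06 (0.66 to 1.49). On day 10 both were below day 0, at -0.66 and -0.71, but above it with TPM, at 0.32 and 0.41. Their day 14 changes were -2.16 and -2.94. Espl1, the protease separase that cuts cohesin, was highest later and ended above day 0, with 17.8, 32.6, 45.5, 56.4 and 36.6. Its day 10 change was 1.61 (0.91 to 2.49). Its day 14 change was 1.00 (0.21 to 1.93), and it was the only member above day 0 then by normalized counts. That day 14 value lay at the 2-fold threshold and was 0.44 against genes of like length and 1.24 with TPM.

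The chromosomal passenger complex corrects attachments and starts cytokinesis. Birc5 (survivin), its centromere-binding subunit, had 124, 326, 149, 48.6 and 24.2 normalized counts. Its step from day 5 to day 10 was the largest fall of any member in that interval, at -1.60 (-2.04 to -1.20). Aurkb, the kinase of the complex, had 36.6, 41.6, 89.3, 57.1 and 8.94, and Incenp, its scaffold, 93.9, 136, 160, 116 and 43.8. Birc5 was highest on day 2, and Aurkb and Incenp on day 5. The day 14 changes were -2.31 for Birc5, -1.92 for Aurkb and -1.08 (-1.63 to -0.59) for Incenp.

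At the kinetochore, Cenpa, the histone H3 variant that marks centromeres, had 67.0, 282, 98.0, 37.8 and 44.7 normalized counts. Its day 2 change was 2.06 (1.65 to 2.50). Its day 14 change was -0.57 (-1.15 to -0.04), and was at -0.02 against genes of like length and 0.24 with TPM. Spc24 had 30.2, 106, 26.0, 11.5 and 5.08, with 1.78 (1.15 to 2.48) on day 2, and its fall from day 2 to day 5 was the largest of any member, at -1.98 (-2.71 to -1.37). Spc25, its partner in the NDC80 complex that holds microtubules, had 43.5, 63.3, 68.3, 30.7 and 10.7. The other pair of that complex moved alike, with 25.7, 32.6, 71.1, 35.7 and 8.04 for Ndc80 and 36.6, 39.4, 89.3, 47.1 and 5.90 for Nuf2. The long genes Cenpe, a kinesin of the kinetochore, and Cenpf, a protein of its outer corona, were above day 0 on days 2, 5 and 10 by counts. Cenpe had 54.4, 94.1, 80.5, 66.4 and 8.04, and Cenpf 27.2, 58.1, 82.3, 82.0 and 4.48. The step of Cenpf after day 10 was -3.92 (-5.85 to -2.94), the largest fall of any member then, and its day 2 change was 1.07 by counts but -0.68 with TPM.

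The kinesins of spindle and chromosomes held the largest change of any member on days 2 (Kif2c), 5 (Kif11) and 10 (Kif14). Kif2c, which takes microtubules apart at centromeres, had 26.7, 116, 105, 62.1 and 6.26 normalized counts, with 2.07 (1.45 to 2.82) on day 2. Kif11, the motor that keeps spindle poles apart, had 17.8, 42.0, 78.8, 62.5 and 3.67, with 2.08 (1.40 to 2.96) on day 5. Kif14, needed for cytokinesis, had 5.94, 18.1, 22.8, 23.9 and 2.68. These 3 were more than 2-fold above day 0 on days 2, 5 and 10. Kif4, a motor on chromosome arms, had 45.7, 68.7, 65.3, 55.9 and 4.51, and its day 14 change of -3.08 (-5.04 to -2.02) was the lowest of the 45 genes. Kif18a, which aligns chromosomes, had between 4.47 and 14.9 counts, and its intervals against day 0 held 0 on all 4 days. From day 10 to day 14 all 5 kinesins fell more than 2-fold, against 8.33% of all genes, with a median of -3.12.

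Of the spindle assembly proteins, Nusap1 had the largest rise, with 33.6, 85.0, 108, 81.0 and 10.2 normalized counts. Ckap2 had 78.2, 119, 193, 106 and 25.0, and its relative Ckap2l 50.8, 69.7, 92.8, 59.3 and 7.15. Hmmr, a microtubule-binding protein of the spindle poles, had 46.9, 59.9, 79.0, 93.9 and 19.9 and was thus highest on day 10. Tpx2 had the lowest day 14 change of this group, at -2.74 (-3.43 to -2.17), and Hmmr the least, at -1.19 (-2.04 to -0.48).

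The genes of the central spindle and cytokinesis had a higher median change on day 5 and day 10 than on day 2. Their median was 0.58 on day 2, 1.13 on day 5 and 0.96 on day 10. On day 5, 5 of 6 were more than 2-fold above day 0, against 20.2% of all genes. They are 2212 (Prc1) to 5421 bases (Anln) long, against 1717 for Cdc20 and 977 for Ube2c, and the part of length in their later values was not tested. Prc1, which bundles midzone microtubules, had 84.1, 93.5, 176, 193 and 79.5 normalized counts. Its day 14 change was -0.08 (-0.53 to 0.37), 0.28 with TPM and 0.27 with library totals alone, so its direction there depends on the scaling. Anln (anillin), which organizes the contractile ring, had 59.4, 50.7, 138, 160 and 17.0, and Ect2, the exchange factor that activates RhoA, 23.8, 32.6, 45.5, 46.4 and 3.58. Prc1 and Ect2 were at 1.19 and 0.94 on day 10, but on day 14 Ect2 was at -2.44 (-4.72 to -1.19). Racgap1 and Kif23, which form centralspindlin, had 83.1, 161, 210, 160 and 41.0, and 42.6, 88.6, 88.4, 47.8 and 8.04. By counts Kif23 was level between days 2 and 5 (-0.51 to 0.52), while it had 7.58 and 14.9 TPM on these days. Kif20a, which brings Plk1 and the passenger complex to the midzone, had 57.0, 93.9, 150, 113 and 25.8. The day 14 change of Racgap1, -1.00 (-1.57 to -0.48), lay just inside the 2-fold threshold, and those of Kif14 and Kif18a, -0.91 and -0.86, just outside it.

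Of the chromosome proteins, Top2a, the topoisomerase that untangles sister DNA, had 193, 172, 374, 265 and 35.5 normalized counts. Mki67, which coats mitotic chromosomes and encodes the proliferation marker Ki-67, had 121, 309, 312, 340 and 25.0. Mki67 counts were close on days 2, 5 and 10. Its TPM on these days was 8.94, 17.8 and 26.7, while the median TPM change of all genes was -0.20, 0.61 and 1.09. Mki67 is 10075 bases long, and its change against genes of like length was 1.51, 1.04 and 0.44. Its step to day 14 was -3.71 (-4.37 to -3.21). Top2a rose only after day 2, with a change of 1.12 (0.80 to 1.46) from day 2 to day 5.

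Paralogs and partners did not always keep their ratio. The 7 pairs, of which 4 are subunits of 1 complex, were picked after the values had been seen, and their ratios are a description. The ratio of Ccnb2 to Ccnb1 counts was 3.71 times (2.09 to 6.61) that of day 0 on day 2, and 1.18 times (0.730 to 1.93) on day 5. The ratio of Bub1b to Bub1 was 2.80 times (1.15 to 7.18) and that of Spc24 to Spc25 2.39 times (1.23 to 4.67) that of day 0 on day 2. All these 3 ratios had intervals that held 1 on days 5, 10 and 14. Aurkb to Birc5 moved both ways, at 0.432 times (0.233 to 0.789) on day 2, 2.03 times (1.28 to 3.25) on day 5 and 3.97 times (2.37 to 6.69) on day 10. Racgap1 to Kif23 was 0.930 times that of day 0 on day 2, 1.71 times (1.05 to 2.77) on day 10 and 2.62 times (1.12 to 6.63) on day 14. Aurka to Tpx2 was 1.65 times (1.02 to 2.66) on day 2 and 2.16 times (1.08 to 4.29) on day 14. Nuf2 to Ndc80 held 1 in its interval on all 4 days. Partners differ in length, and the part of length in these ratios was not tested.

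Gene length moved with the changes, in mitosis genes as in all genes. On day 10, the Spearman correlation of log2 change with length was 0.62 over the 45 mitosis genes and 0.44 over 13346 genes. For the step from day 5 to day 10 it was 0.80 and 0.50, and for day 10 to day 14 -0.50 and -0.44. On day 14 against day 0 it was 0.04 and 0.30. Genes in 1 pair of libraries share those libraries and are not independent replicates, so no p-value is given. All genes were also split by length into 3 classes of like size. In the shortest class, the median change of all genes on day 10 was -0.81, and that of the 12 mitosis genes there -0.68. In the longest class these were 0.80, and 0.96 for 16 mitosis genes. From day 5 to day 10, the median of the mitosis genes minus that of all genes was -0.63 in each of the 3 classes. On day 14, their medians were -2.23, -1.63 and -2.12 from short to long, against -0.53, 0.15 and 0.46 for all genes.

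**Figure D4:**
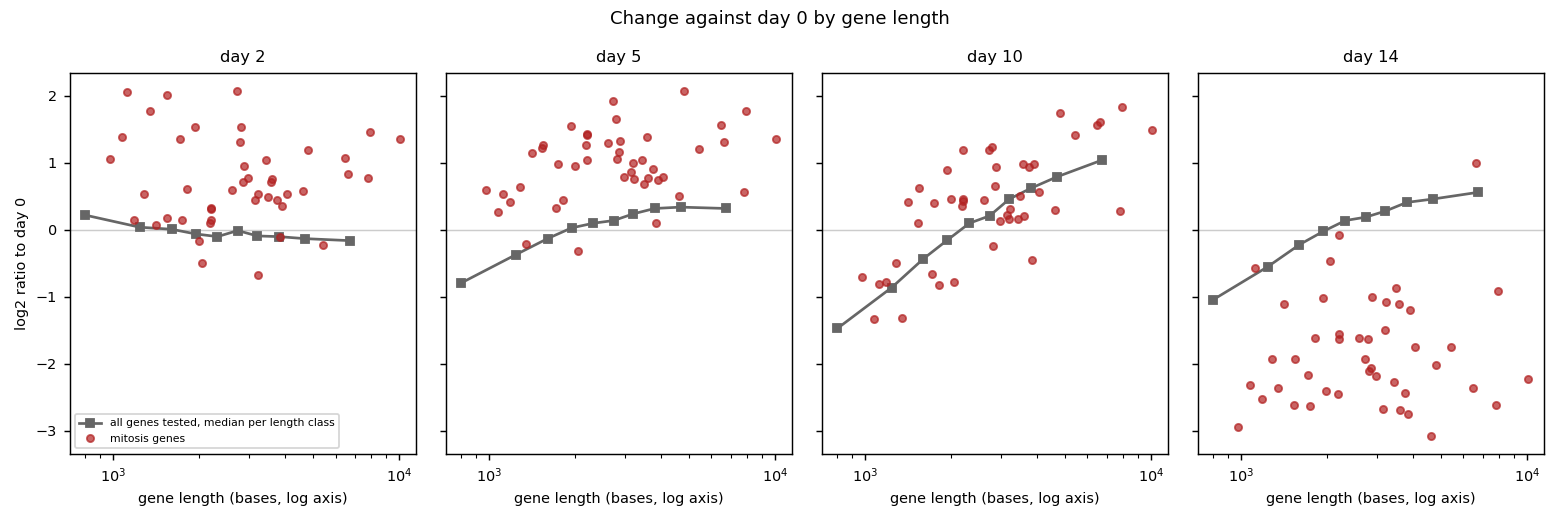
Log2 change against day 0 by gene length (bases, log axis) on days 2, 5, 10 and 14, for 45 mitosis genes (red points) and as the median of all 13346 genes tested in each of 10 length classes (grey squares). On day 10 the mitosis genes follow the grey line, and on day 14 most lie below it at every length.

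The values also depended on how length was treated. When each change was centred on the median of its length class, with 10 classes, the median of the mitosis genes was 0.71, 0.92, 0.32 and -1.90 on the 4 days. This setting was chosen once the values were known. On day 10, 14 of the 45 genes then changed sign, among them Cenpe (-0.76), Kif4 (-0.50) and Ube2c (0.77). TPM moved the median of all genes to -0.20, 0.61, 1.09 and 0.78, and that of the mitosis genes to 0.32, 1.43, 1.43 and -0.74. Library totals alone gave all-gene medians of -0.11, 0.41, 0.60 and 0.42. The mean length of the genes that the counted reads came from was 2279 bases on day 0, then 2127, 2657, 3351 and 2955 bases, and its part in the results was not tested.

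Other genes of the pathway were taken from lists by role. Of 36 other genes made in G2 and M phase, 14 were more than 2-fold above day 0 on day 2 and 24 on day 5, against 15.2% and 20.2% of all genes, with 0 below on both days. On day 14, 29 of the 36 were below, against 19.9% of all genes, and 0 above, with a median of -1.71. Troap, a spindle protein, was not counted on day 14 (0 counts) and was at least 4.43-fold below its 11.9 normalized counts of day 0. Plk4, the kinase of centriole duplication, had 10.1 on day 0 and 16.1 on day 14, a change of 0.62 (-0.49 to 1.98).

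Subunits of the APC/C and of condensin and cohesin followed. Of 14 APC/C genes, 0 were more than 2-fold above and 3 below day 0 on day 14, against 24.5% and 19.9% of all genes, with a median of -0.63. The share below was thus near that of all genes. Anapc13 was lowest there, at -1.09 (-1.40 to -0.79), and Anapc2 highest, at 0.53 (0.36 to 0.71). Of the 14 condensin and cohesin genes in this list, 4 were above, a share near the 24.5% of all genes, and 0 below, with a median of 0.32. The list leaves out the condensin I genes Ncapg and Ncaph, which were placed with the other G2 and M phase genes. On day 14 Ncapg was at -2.80 (-4.54 to -1.79) and Ncaph at -1.46 (-2.42 to -0.68). The 14 listed genes ranged from Ncapg2, a condensin II subunit, at -0.96 (-1.86 to -0.17) to Pds5a, a cohesin regulator, at 1.42 (0.69 to 2.29).

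Of 10 genes of the DREAM and MuvB complexes, which regulate the gene wave, 3 were above and 1 below on day 14, with a median of 0.05. With 10 genes these shares are near the 24.5% and 19.9% of all genes. Mybl2, which encodes B-Myb, had 20.8 normalized counts on day 0, 47.3 on day 5 and 2.68 on day 14, a change of -2.56 (-5.34 to -1.21). Rbl2, which encodes the pocket protein p130 of the repressor complex, had 8.97 on day 0, 71.9 on day 5 and 91.4 on day 14, a change of 3.21 (2.37 to 4.53). Of 8 genes known to be high in resting cells, 5 were above and 1 below, against 24.5% and 19.9% of all genes, with a median of 1.40. Cdkn1b (p27) had 22.8 on day 0 and 156 on day 14, a change of 2.73 (2.15 to 3.48). Cdkn1a (p21), by contrast, went from 4119 to 1128, a change of -1.87 (-1.96 to -1.78).

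**Figure D5:**
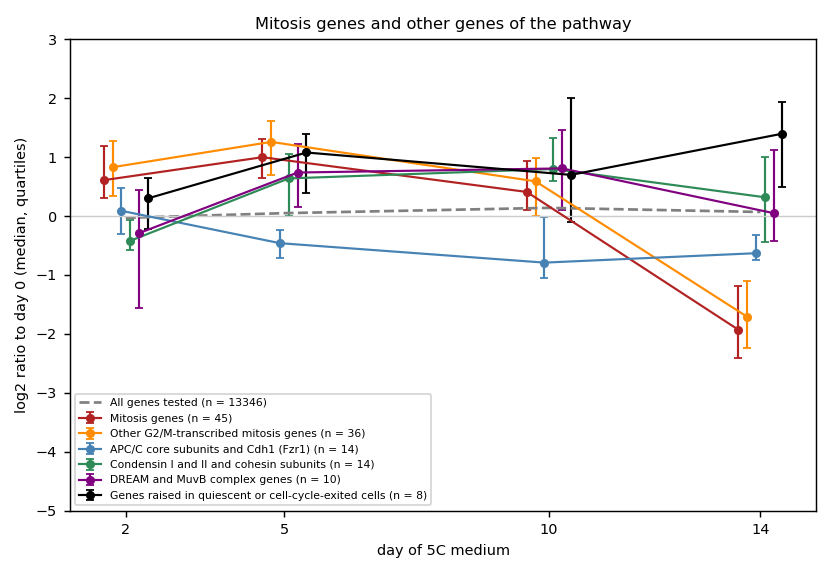
Median log2 change against day 0, with quartiles as bars, for the mitosis genes and 5 other gene lists on days 2, 5, 10 and 14, and the median of all genes tested as a dashed line. On day 14 the mitosis genes (-1.93) and other genes of G2 and M phase (-1.71) lie below all genes, and the other lists between -0.63 and 1.40.

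Markers of cell types moved in the same libraries. All 12 fibroblast markers were counted in all 5 libraries. Their normalized counts summed to 45649, 39269 and 73614 on days 0, 2 and 14. Col1a1 (22717), Col3a1 (19193) and Col1a2 (14138) made up most of the day 14 sum. By gene the list was split. On day 14, 4 of the 12 were more than 2-fold above day 0 and 4 below, against 24.5% and 19.9% of all genes. Twist2 was lowest then, at -2.71, and Dcn highest, at 4.86. Of 15 macrophage markers, 14 were tested, and all 14 were more than 2-fold above day 0 on day 2, against 15.2% of all genes. Some of these rises rest on few counts, since Ptprc went from 0 to 1 count and Fcgr1 from 1 to 4 (-0.47 to 8.49). Both reached 10 counts only after day 2. The sum of all 15 was 303, 2343, 3905, 2155 and 1588 on the 5 days. Ptprc (CD45) was at 0 on day 0 only, Itgam was at -2.94 and Mrc1 at 4.02 on day 14. The 8 Schwann cell and neural crest markers, none of them at 0, summed to 224, 574, 1539, 7525 and 12078, with S100b at 3.11 and Sox10 at 7.97. Of 10 neuronal markers, 6 were tested. The sum of all 10 was 683, 372, 250, 304 and 414, of which Stmn2 (448) and Map2 (196) made up most on day 0. On day 14, 3 of the 6 were above and 3 below, with a median of 0.79. Tubb3, the antigen of the TuJ antibody, had 22.1, 39.8, 91.8, 84.2 and 161, a day 14 change of 2.81 (2.24 to 3.60). Rbfox3, the marker of mature neurons, was at 0 in all 5 libraries, Map2 was at -2.08 on day 14, and Syp, at 0 on day 0, was at least 11-fold higher on day 14. Elavl3, Snap25 and Syp were also at 0 on day 0, and Dcx, Elavl3 and Elavl4 on day 14. All libraries are labelled by the fibroblast origin of the cells. The part of these markers in the changes of the mitosis genes was not tested.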

How the data were processed

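RNA of 5 libraries, 1 per time point, was sequenced from a TruSeq preparation. The authors deposited RSEM expected counts per gene, TPM values and FPKM values. The expected counts deposited by the authors carry no scaling and were used for all main values, the TPM values deposited by the authors are per length and scaled to 1000000 and were used as an alternative, and the FPKM values deposited by the authors were not used. The submitters' processing notes name Bowtie, RSEM and mm10, and versions, annotation and filters are not given in the sources used here. For 29 of the 45 genes, counts were not whole in 1 or more libraries, since RSEM divides reads shared between genes.

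Identifiers were matched to GENCODE M21 symbols, for 27247 of 27729 genes. Expected counts were rounded for the TMM factors of edgeR 4.0.16 (0.856, 0.808, 1.11, 1.19 and 1.1) in R 4.3.3, which were applied to the unrounded counts. Normalized counts were scaled to the geometric mean library, and log2 ratios used a pseudocount of 1. A 2-fold threshold was set on genes that reached 10 expected counts in at least 1 library. Exact Clopper-Pearson intervals used rounded counts without a pseudocount. Depth gave a floor of 3 counts per library. Molecules were not tagged, so intervals cover counting error only.

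The 45 genes and all lists were chosen with earlier results of these data known. Genes were named as the highest mean and the lowest and highest day 14 change of each role, the largest step in each direction, and the day 14 extremes of each other list. The remaining members were added to account for all. The alternatives were DESeq2 1.42.0 size factors, library totals alone, TPM, a pseudocount of 5, a stricter filter and no filter. Chosen after seeing the data were centring by 10 length classes, library sizes that leave out Gm42418 and Lars2, the pairs and the promoters shown. Scripts were tested on simulated counts. Protein sequences were not used here.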

Additional observations from a re-analysis of the deposited data

How the results depend on the processing

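The median of the mitosis genes minus the median of all genes kept its direction on all 4 days under all 8 alternatives run. With TPM, the median of the mitosis genes was 1.43 on day 10, against 0.41, and -0.74 on day 14, against -1.93. The number of mitosis genes more than 2-fold below day 0 on day 10 was 2. It was 1 with 10 or more counts required in every library, which left 27 of the 45 genes, 1 with centring by length class, 0 with library totals alone and 0 with TPM. The shares of all genes below on day 10 were 22.3%, then 25%, 18.4%, 14.5% and 6.77% in the same order. On day 14 the number of mitosis genes below was 39, against 23 of 27 with that filter and 17 with TPM. The shares of all genes below on day 14 were 19.9%, 20.4% and 6.96%. The median of all genes on day 14 was 0.78 with TPM and 0.07 by the main scaling. The part of this shift in the lower number was not tested. The day 2 change of Cenpf, 1.07, was -0.68 with TPM, and the cause was not tested. The number more than 2-fold above day 0 moved with the scaling on days 2, 5 and 10, from 15, 22 and 9 to 7, 39 and 33 with TPM and to 12, 34 and 17 with library totals alone. The shares of all genes above were 15.2%, 20.2% and 28.7% by the main scaling. They were 7.9%, 32% and 52.9% with TPM, and 13.7%, 28.6% and 39.3% with library totals alone. The forward strand alone gave a CHR share of 62.5%, against 80% on both strands. DESeq2 size factors, no filter, and library sizes without Gm42418 and Lars2 kept the medians and the numbers below day 0 close to the main values. With a pseudocount of 5, the day 14 median of the mitosis genes was -1.55, against -1.93. In that setting 36 were below and 0 above on day 14, against 18% and 20.8% of all genes. No paired analysis was possible because each time point has 1 library. Depth limits the day 14 values most, with 18 members under 10 counts.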
